A study of Homo sapiens with 11 samples.

Results

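Class 3 semaphorins, their neuropilin receptors and the A plexins were followed on 11 Agilent arrays of transfected lung adenocarcinoma cells. The members were 10 genes chosen by family: SEMA3A, SEMA3B, SEMA3C, SEMA3D, SEMA3E and SEMA3F among the ligands, NRP1 and NRP2 among the neuropilins, and PLXNA1 and PLXNA2 among the plexins. They were chosen with the array signals already known, so their own values are given as a description, with no p-value, and where the rule for calling probes was applied to them the outcome is a count that supports nothing. All 13 probes of these genes were used, out of 42405 probes on the array, of which 27241 could be named for 20249 genes through their RefSeq accession. Class 3 semaphorins are secreted proteins first known for turning growing axons away. Most bind a neuropilin on the cell surface, and the neuropilin passes the signal on through an A plexin, which lies beside it in the membrane. SEMA3B and SEMA3F lie in a region of chromosome 3 that is often lost in lung cancer, and neuropilins also bind forms of VEGF, the growth factor of blood vessels.

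The cells were A549 and HCC827, established human lung adenocarcinoma lines. All had been infected with a retrovirus made from pMXs-Neo and selected with G418. The mock cells carried the empty vector and the TRIM58-WT cells carried FLAG-tagged wild-type TRIM58, a tripartite motif protein with ubiquitin ligase activity. In A549, 3 mock and 3 TRIM58-WT cells were measured, and control cell 1 had an array pair (1-1 and 1-2), whose mean was used as 1 replicate. In HCC827, 2 mock and 2 TRIM58-WT cells were measured on 1 array each. Per the methods, A549 transfectants were isolated as clones. Whether the numbered A549 cells of a group were different clones is not given, so differences between clones may or may not enter its spread. Each level below is the log2 signal of a probe minus the 75th percentile of its array, so probes above 0 were among the brighter ones of that array, and each step of 1 is a doubling of signal. Levels of different probes were not compared. In extracts of whole cultures, fewer cells expressing a gene and less RNA per cell cannot be told apart. Whether the cells labelled 1, 2 and 3 were separate infections is not given in the sources used here, so the spread may be partly technical.

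Several arrays stood apart from their labels or lay closer to others than their labels would give. The TRIM58 probe gave no signal clearly over background on the 5 arrays labelled TRIM58-WT, and of the 6 mock arrays it did so, at -0.71, in A549 mock replicate 3 alone. Where the probe lies relative to the cloned coding sequence was not analysed here, and TRIM58-WT below means the arrays labelled so. Over 13887 probes detected on all arrays (a probe counts as detected where the scanner software marked it as well above background), the log2 signals of A549 mock 3 differed from those of TRIM58-WT 2 and TRIM58-WT 3 with an SD of 0.51, and from those of the other mock arrays with SDs of 0.59 to 0.69. TRIM58-WT 2 and 3 differed from each other with an SD of 0.19, less than the 0.24 between both arrays of control cell 1. Whether TRIM58-WT 2 and 3 were separate clones is not given, so standard errors that count them as separate replicates may be too small. The A549 results are therefore also given without mock 3 and with TRIM58-WT 2 and 3 averaged. The 75th percentile of the signal ran from 56.6 to 125 across the arrays, and the share of detected probes from 40.1% to 49.99%. A549 mock 3 and TRIM58-WT 2 and 3 were the dimmest, at 60.3, 62.5 and 56.6, and every other array was at 90.5 or more. Their shares of detected probes were also the lowest, at 40.5%, 40.1% and 40.4%. The arrays lay on 2 slides. A549 was split over both, and all HCC827 arrays were on slide 1, so slide and line are partly shared. A549 mock 1-2, mock 3 and TRIM58-WT 2 and 3 were on slide 2. The part of signal strength and slide in the closeness of mock 3 to TRIM58-WT 2 and 3 was not tested.

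Markers of the cell types were read on the same arrays. Of 6 epithelial markers, all 6 were detected on every mock array and every HCC827 array, and 4 to 5 on those of A549 TRIM58-WT, where KRT19 was detected on no array and EPCAM on 1 of 3. None of the 6 endothelial markers was detected anywhere. Of 4 markers of lung epithelium, 1 to 2 were detected in A549 and 3 to 4 in HCC827. The summed level of 8 mesenchymal markers ranged from 4.85 to 7.57 on the A549 mock arrays and from 6.90 to 8.62 in A549 TRIM58-WT, and from 1.19 to 1.57 and from 2.31 to 2.86 on the mock and TRIM58-WT arrays of HCC827. VIM made up most of that sum, with means of 5.68 in A549 mock, 7.75 in A549 TRIM58-WT, 1.05 in HCC827 mock and 2.48 in HCC827 TRIM58-WT. In A549 the means of CDH2 (2.06 in mock and 4.78 in TRIM58-WT) and COL1A1 (-4.39 and -0.06) were also higher in TRIM58-WT, and that of LUM was lower (-1.39 and -4.64). COL1A1 was detected on no A549 mock array. LUM was detected on 3 of 4 A549 mock arrays, not on mock 3 (-4.18), and on no A549 TRIM58-WT array. In HCC827 the means of CDH2 (-2.40 and -3.75) and COL1A1 (-2.85 and -3.39) were lower in TRIM58-WT. Neither was detected on an HCC827 TRIM58-WT array, and COL1A1 was detected on 1 of 2 HCC827 mock arrays, so these means include background signals. Of 5 neuron markers, 2 to 3 were detected in A549 and 2 in HCC827. Their summed level ranged from 6.14 to 6.69 in A549 mock and from 6.58 to 6.79 in A549 TRIM58-WT, and from 5.01 to 5.20 and from 5.22 to 5.62 in HCC827. TUBB3 made up most of that sum. RBFOX3 was detected on all 4 A549 mock arrays and on 1 of 3 A549 TRIM58-WT arrays, with means of 3.11 and -2.44. The means of TUBB3 (6.14 and 6.49), SNAP25 (2.70 and 3.04), SYT1 (-3.61 and -3.26) and STMN2 (-4.775 and -3.27) were higher in A549 TRIM58-WT. In A549, SYT1 was detected on no array and STMN2 on 1 TRIM58-WT array alone. The part of all these markers in the differences given below was not tested.

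Of the members, 5 (SEMA3B, SEMA3C, NRP1, NRP2 and PLXNA1) had at least 1 probe detected on all 11 arrays. SEMA3A was detected on 2 arrays and SEMA3F on 7. SEMA3D, SEMA3E and PLXNA2 were detected on none, so these arrays give only an upper bound for them. Their probes, A_32_P29118, A_24_P123833 and A_23_P307544, lay between -5.76 and -3.78.

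Start sites of SEMA3B and SEMA3F are shown because both ligands lie on chromosome 3 and both were lower in HCC827 mock than in A549 mock, while only the SEMA3F probe was not well above background in HCC827. The windows run from 250 bases before to 50 bases after the outermost RefSeq start on assembly GRCh38.p14, on the plus strand, at chr3:50259976-50260275 for SEMA3B and chr3:50154808-50155107 for SEMA3F. Capitals mark the GC box letters GGGCGG or their reverse complement CCGCCC, which a script searched on both strands, overlapping matches included.
SEMA3B: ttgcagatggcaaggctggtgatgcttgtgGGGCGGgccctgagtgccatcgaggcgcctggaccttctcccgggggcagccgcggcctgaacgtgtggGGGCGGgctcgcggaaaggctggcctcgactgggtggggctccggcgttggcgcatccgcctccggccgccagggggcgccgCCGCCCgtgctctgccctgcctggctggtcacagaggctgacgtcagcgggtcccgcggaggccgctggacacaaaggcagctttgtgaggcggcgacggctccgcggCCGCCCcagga
SEMA3F: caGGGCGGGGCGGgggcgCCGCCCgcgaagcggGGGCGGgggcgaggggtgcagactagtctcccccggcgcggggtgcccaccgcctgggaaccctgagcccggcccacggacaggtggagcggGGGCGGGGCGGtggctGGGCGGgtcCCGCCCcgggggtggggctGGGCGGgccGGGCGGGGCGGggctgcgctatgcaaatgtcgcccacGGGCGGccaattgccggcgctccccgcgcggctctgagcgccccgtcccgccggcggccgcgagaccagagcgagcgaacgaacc
The SEMA3F window held 12 matches and 44 CpG dinucleotides, and the SEMA3B window 4 matches and 32 CpG. Of all 35116 windows of the same length, 45.0% held the GC box letters at least once, and the median window held 14 CpG. A TATA box, TATAAA on either strand, was in neither window and in 4049 of all windows. Of the 10 members, 8 had a window and 7 a window at the outermost start. Among these 7, 5 held the GC box letters and 5 had more CpG than the median window. No window was given for SEMA3A or NRP1. These counts describe the letters of the reference and not the methylation or use of the sites in these cells.

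SEMA3A was detected in HCC827 mock and in no other group. Its product collapses growth cones and is the founding class 3 member. The probe A_24_P192301 (chromosome 7) lay at -0.42 and -0.47 on the HCC827 mock arrays. On the HCC827 TRIM58-WT arrays it lay at -3.14 and -3.11, not well above background. Both mock arrays lay above both TRIM58-WT arrays by more than the spread between replicates. SEMA3A was thus at least 6.42-fold lower in TRIM58-WT (log2 difference -2.68, SE 0.13, 2 against 2). That bound sets the mean of the mock arrays against, on each TRIM58-WT array, the higher of the lowest detected signal on the array and the probe's own signal. Here the probe's own signal was the higher on both, so the bound equals the plain difference of means and makes no allowance for error.

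In A549, SEMA3A was detected on no array. Its values were -3.03, -3.21, -3.05 and -4.56 on mock arrays 1-1, 1-2, 2 and 3 and -1.72, -2.67 and -2.33 on the TRIM58-WT arrays. They have no level that could be compared, so the contrast of both changes, -4.02 (HCC827 minus A549), rests on undetected signals in A549. With normexp background correction the HCC827 difference shrank to -0.85, under the 2-fold threshold. That setting adds an offset of 50 to every signal, which by itself shrinks log2 differences of dim probes.

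SEMA3B was lower in TRIM58-WT than in mock in A549 and higher in HCC827. SEMA3B is a class 3 ligand described as a tumour suppressor in lung cancer. Its probe, A_23_P132718 (chromosome 3), lay at 5.33, 5.34, 5.44 and 3.05 on A549 mock arrays 1-1, 1-2, 2 and 3. On the TRIM58-WT arrays of A549 it lay at 3.80, 2.07 and 2.37. Mock 3 lay more than 2 log2 units below the other mock arrays and inside the range of the TRIM58-WT arrays, so both groups overlapped.

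In HCC827 the SEMA3B probe lay at 0.80 and 0.51 in mock and at 1.71 and 1.89 in TRIM58-WT, without overlap. The difference was -1.86 (SE 0.76) in A549 and 1.14 (SE 0.17) in HCC827. In A549 it was -2.64 without mock 3 and -1.60 with TRIM58-WT 2 and 3 averaged. Within slides it was -1.59 on slide 1 (2 mock arrays, 1 TRIM58-WT) and -1.97 on slide 2 (2 of each). The changes of both lines differed by 3.00 (SE 1.06), and by 3.78 without mock 3. Over the groups SEMA3B was highest in A549 mock, then A549 TRIM58-WT, HCC827 TRIM58-WT and HCC827 mock, with only both A549 groups overlapping.

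SEMA3C had a higher mean in TRIM58-WT than in mock in both lines, by less than 2-fold. It is a ligand known from heart outflow tract development, and its probe A_23_P256473 (chromosome 7) was detected on every array. It lay at -0.67, -0.52, -0.70 and 0.07 on the A549 mock arrays and at -0.17, 0.28 and 0.23 on the A549 TRIM58-WT arrays, with mock 3 again inside the TRIM58-WT range. In HCC827 it lay at -1.50 and -1.35 in mock and at -0.70 and -0.95 in TRIM58-WT, without overlap. The difference was 0.52 (SE 0.26) in A549 and 0.60 (SE 0.16) in HCC827, and neither reached 2-fold. In A549 it was 0.76 without mock 3, 0.45 with TRIM58-WT 2 and 3 averaged and 0.16 where each array was shifted by its median. With that shift the changes of both lines differed by 0.48.

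SEMA3F separated the lines rather than the transfectants. Its product signals mainly through NRP2. The probe A_33_P3813128 (chromosome 3) lay at -1.11, -0.86, -0.73 and -1.50 on the A549 mock arrays and at -0.22, -1.25 and -0.93 on the A549 TRIM58-WT arrays. All of these were well above background, and both groups overlapped, with a difference of 0.27 (SE 0.33), which was 0.06 without mock 3 and 0.42 with TRIM58-WT 2 and 3 averaged. On the HCC827 arrays it lay at -5.26 and -4.90 in mock and at -4.91 and -5.47 in TRIM58-WT, none of them well above background. Its signal in HCC827 mock was at least 4.47-fold lower than in A549 mock. Over the alternative settings the log2 difference between these groups ran from -4.22 to -1.05, the smallest being under that bound.

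**Figure D1:**
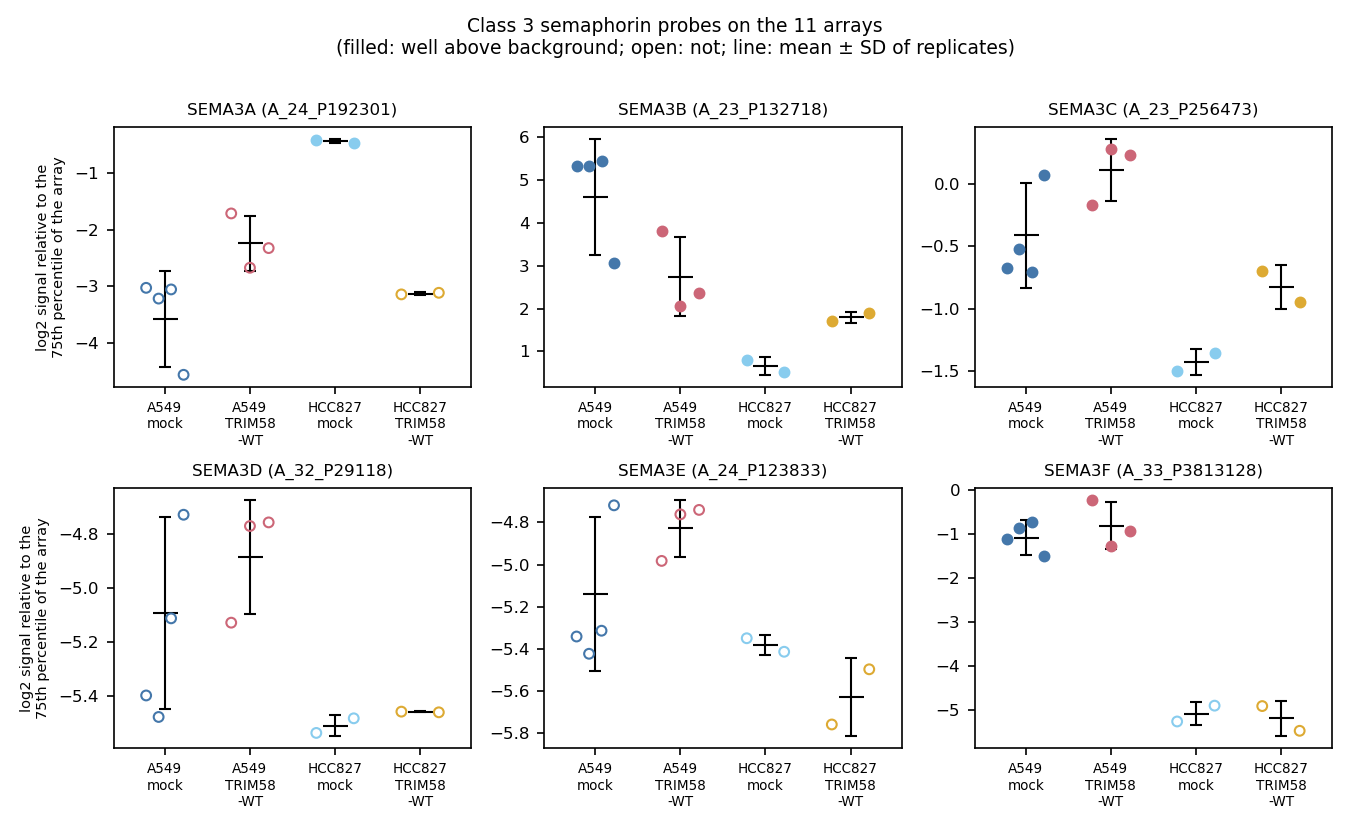
Log2 signal relative to the 75th percentile of the array (vertical axis) of each SEMA3 probe in the 4 groups, 1 point per array, with the mean and SD of the replicates (lines; arrays 1-1 and 1-2 averaged first). Filled points were well above background and open points were not; SEMA3A is filled only in HCC827 mock, SEMA3F only in A549, and A549 mock 3 is the low mock point of SEMA3B at 3.05.

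Among the receptors, NRP1 was higher in A549 TRIM58-WT on both of its probes and nearly level in HCC827. NRP1 is the main receptor of SEMA3A and a co-receptor of VEGF. The probe A_24_P135322 (NM_001024629) lay at 1.15, 1.34, 1.37 and 2.00 on the A549 mock arrays and at 2.10, 2.71 and 2.77 on the TRIM58-WT arrays. The probe A_24_P928052 (NM_003873) lay at 1.54, 1.43, 1.39 and 2.12 on the mock arrays and at 2.33, 2.20 and 2.35 on the TRIM58-WT arrays. On both probes every TRIM58-WT array lay above every mock array, and mock 3 was the mock array nearest to them.

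The A549 differences of NRP1 were 0.99 (SE 0.29) and 0.63 (SE 0.23), or 1.22 and 0.86 without mock 3 and 0.89 and 0.64 with TRIM58-WT 2 and 3 averaged. Within slides they were 0.84 and 0.86 on slide 1 and 1.07 and 0.50 on slide 2. In HCC827 the first probe lay at 1.47 and 1.54 in mock and at 1.58 and 1.62 in TRIM58-WT, a difference of 0.09 (SE 0.13). The second lay at 2.10 and 1.96 in mock and at 1.78 and 1.90 in TRIM58-WT, a difference of -0.19 (SE 0.14). The probes thus differed in sign in HCC827, by less than 2 standard errors each. The change in HCC827 minus that in A549 was -0.90 (SE 0.40) and -0.82 (SE 0.32). The position of each probe in the NRP1 transcripts was not analysed here.

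NRP2, the receptor that SEMA3F prefers, was close to level between mock and TRIM58-WT on 2 of its 3 probes. The probe A_33_P3297415 (NM_201264) ran from -0.89 to -0.62 on the A549 mock arrays and from -0.77 to -0.54 on the TRIM58-WT arrays, with a difference of 0.11 (SE 0.15). The probe A_23_P393727 (NM_201266) ran from -1.22 to -0.93 and from -1.13 to -0.75, with a difference of 0.21 (SE 0.18). The probe A_24_P50801, with the same accession as the first, gave 0.84 (SE 0.42). Its values were -0.61, -0.56, -1.84 and -0.43 on the mock arrays, of which mock 2 at -1.84 was not well above background, and -0.56, 0.11 and 0.13 on the TRIM58-WT arrays. Without mock 3 that difference was 1.11, and with TRIM58-WT 2 and 3 averaged 0.73. The probes therefore disagreed in size in A549. In HCC827 the differences were -0.27, 0.16 and -0.11 in the same order (SE 0.13, 0.25 and 0.23).

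The NRP2 probe A_23_P393727 was lower in HCC827 than in A549. It lay at -2.45 and -1.85 in HCC827 mock and at -2.08 and -1.90 in HCC827 TRIM58-WT. Background was close to these values, since the mock array at -2.45 was not well above it and the TRIM58-WT array at -2.08 was. The other NRP2 probes overlapped between both mock groups.

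PLXNA1, the plexin that carries the signal of neuropilin-bound semaphorins, was detected on every array. The probe A_23_P57667 (chromosome 3) lay at 2.95, 2.58, 2.97 and 2.13 on the A549 mock arrays and at 3.34, 2.53 and 2.58 on the TRIM58-WT arrays, which overlapped. It lay at 3.82 and 3.59 in HCC827 mock and at 4.06 and 3.88 in HCC827 TRIM58-WT. The differences were 0.20 (SE 0.32) in A549 and 0.27 (SE 0.16) in HCC827. That in A549 was -0.05 without mock 3 and 0.33 with TRIM58-WT 2 and 3 averaged. All 4 HCC827 arrays lay above all 7 A549 arrays.

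**Figure D2:**
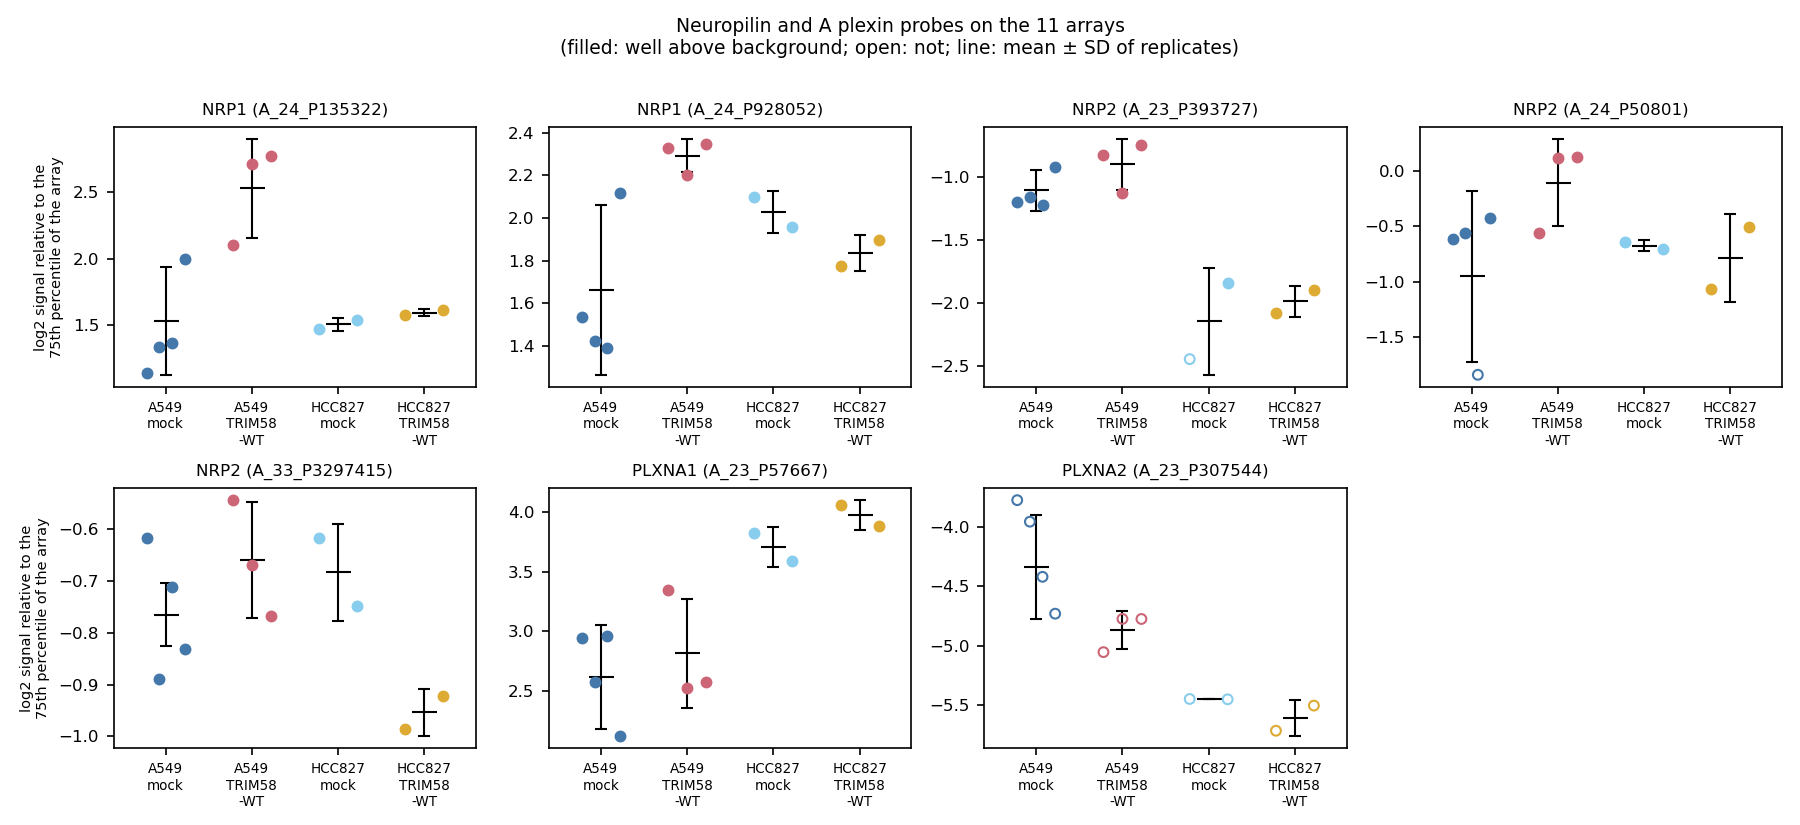
Log2 signal relative to the 75th percentile of the array (vertical axis) of the NRP1, NRP2, PLXNA1 and PLXNA2 probes in the 4 groups, 1 point per array, with the mean and SD of the replicates (lines; arrays 1-1 and 1-2 averaged first). Filled points were well above background and open points were not; both NRP1 probes are higher on the A549 TRIM58-WT arrays than on the A549 mock arrays, and PLXNA2 is open throughout.

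A probe was tested in a line when all mock or all TRIM58-WT arrays detected it, and called when the limma p adjusted over all tested probes was under 0.05 and the difference was at least 2-fold. Of the 13 member probes, 9 from 6 genes were tested in each line. In A549, none of the 9 was called, where 6.92% of all 16923 tested probes were (3.49% higher and 3.43% lower in TRIM58-WT). Without mock 3, an array left out after its values were seen, 2 of the 9 met the rule (SEMA3B and the NRP1 probe A_24_P135322), among 1956 probes in all. Without TRIM58-WT 1 that NRP1 probe did, at 1.20, among 1462 in all. In HCC827, 1 of 9 met the rule, SEMA3A, which was tested only through the mock arrays on which it was high, where 0.593% of all 19563 tested probes were called lower and 0.884% in either direction. It did not meet the rule without mock 1 or without mock 2. Both groups did not overlap on 2 of 9 member probes in A549, against 31% of all tested probes, and on 7 of 9 in HCC827, against 56.6%. Since the members were chosen with these values known, nothing is read from the counts. With only the brightest tested probe of each gene kept, the median difference over the 6 tested member genes was 0.40 in A549 and 0.08 in HCC827. For NRP2 the probe kept was A_24_P50801, at 0.84 in A549, where the other NRP2 probes gave 0.11 and 0.21. With either of those in its place the A549 median would be lower. Over all tested probes, not reduced to 1 per gene, the median was 0.06 in A549 and 0.01 in HCC827. Where each array was shifted by its median instead, all A549 differences moved by -0.37, and SEMA3F, PLXNA1 and 2 of the 3 NRP2 probes then changed sign in A549. The share of called probes that were higher then went from 50.5% to 25.6% in A549 and from 32.9% to 45.7% in HCC827.

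**Figure D3:**
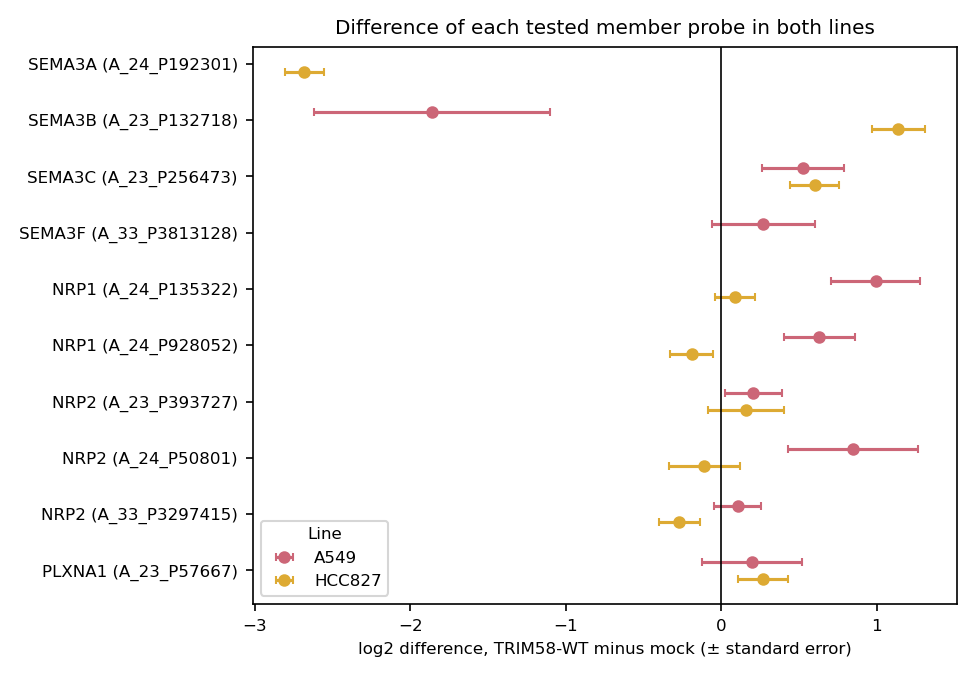
Log2 difference of TRIM58-WT minus mock (horizontal axis) with its standard error for each tested member probe (rows) in A549 (3 against 3) and HCC827 (2 against 2). SEMA3A lies at -2.68 in HCC827, SEMA3B at -1.86 in A549 and at 1.14 in HCC827, and the other probes lie between -0.27 and 0.99.

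The mock cells of both lines were set side by side in a fit of all 10 replicates. Of the 10 tested member probes, 6 met the rule between HCC827 mock and A549 mock, where 29.5% of 20641 tested probes were (15.6% higher and 13.9% lower in HCC827). SEMA3A, at least 5.38-fold, and PLXNA1, by 1.08 (SE 0.32), were higher in HCC827. SEMA3A was tested only through the HCC827 mock arrays on which it was high, and 1 of 16 alternative settings lost it. Its log2 difference ran from 0.76 to 3.39 over these settings, the smallest being under that bound. SEMA3B, by -3.95 (SE 0.75), SEMA3C, by -1.02 (SE 0.26), SEMA3F and the NRP2 probe A_23_P393727, by -1.04 (SE 0.22), were lower. NRP1 differed by -0.03 (SE 0.28) and 0.37 (SE 0.23) on its probes. The other NRP2 probes differed by 0.28 and 0.08. Without A549 mock 3, or without HCC827 mock 1, the count was 3 (SEMA3A, SEMA3B and SEMA3F). Nothing is read from these counts either. The A549 transfectants were clones, whereas those of HCC827 are called crude in the study, so line and cloning cannot be told apart here. The difference between the changes of both lines was called at an adjusted p under 0.05 alone, with no fold threshold. By that rule 1 of 10 member probes was counted, SEMA3A, where 3.86% of the tested probes were. Without mock 3 the count was 3 (SEMA3A, SEMA3B and the NRP1 probe A_24_P928052), and the share of all tested probes in that fit is not given here. With any single HCC827 replicate left out, SEMA3A was not counted.

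The probes most like each of 3 members were found by the root mean square (RMS) difference of their levels over the 10 replicates, each centred on its mean, among 16623 named probes. For SEMA3F they were MKRN3 (RMS 0.26), AMBP (0.31) and SLC22A23 (0.31). For SEMA3B they were UNC5B (0.43), KILH (0.45) and MIR3936HG (0.46), and for SEMA3A HLA-DRB4 (0.61), RNASE1 (0.61) and SLC28A3 (0.63). UNC5B, a netrin receptor, belongs to another family of axon guidance proteins. None of these 9 genes is a member, and the measure describes these replicates only.

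Other genes of the pathway were read from 7 lists with 57 genes, listed by role, and p-values were adjusted over all tested probes. These lists, too, were drawn up with earlier results of these data known, so the p-values of their genes are given as a description. In A549, 43 of their probes were tested, 1 rose and 4 fell, where 3.49% and 3.43% of all tested probes did. In HCC827, 43 were tested and 1 was called, a rise, where 0.291% of all tested probes rose (limma, same rule). The 8 VEGF ligands and receptors and the 4 plexins B and C gave no called probe in either line. An unadjusted limma p was under 0.05 for 2 of 5 tested VEGF probes and 1 of 3 tested plexin probes in A549. In HCC827 it was for 2 of 4 VEGF probes and 0 of 3 plexin probes. The share over all tested probes is not given here, so nothing is read from these counts.

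Of the other class 3 semaphorins and their plexins, SEMA3G, PLXNA3, PLXNA4 and PLXND1, 2 genes could be tested in each line. PLXND1, the plexin that binds SEMA3E without a neuropilin, fell in A549. Its probe A_24_P376391 lay at 1.82, 1.84, 1.92 and 1.88 on the mock arrays and at 1.23, 0.44 and 0.61 on the TRIM58-WT arrays, without overlap, with mock 3 among the other mock arrays. The log2 difference was -1.12 (SE 0.24, limma adjusted p = 0.038). It was lost when any single A549 replicate but TRIM58-WT 1 was left out (adjusted p up to 0.154), and it was -0.64 on slide 1 and -1.33 on slide 2. In HCC827 PLXND1 lay at -0.60 and -0.89 in mock and at -3.27 and -1.03 in TRIM58-WT, where the first was not well above background, with a difference of -1.40 (SE 0.77, limma adjusted p = 0.371). Without TRIM58-WT 2 that difference was -2.52, from 2 mock arrays against the 1 TRIM58-WT array not well above background. PLXND1 was also lower in HCC827 mock than in A549 mock (-2.62, limma adjusted p = 0.00567).

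PLXNA3, a further neuropilin partner, did not pass the test in either line. Its probe lay at 0.44, 0.21, 0.40 and -1.08 on the A549 mock arrays and at 1.28, 0.12 and 0.22 on the TRIM58-WT arrays, and it was higher in HCC827 mock than in A549 mock by 1.90 (limma adjusted p = 0.0156, and 0.101 without HCC827 mock 1 and 0.055 without HCC827 mock 2). SEMA3G was well above background only in A549 TRIM58-WT 1 and 2, at -0.76 and -2.23, and was not tested. Of the 5 PLXNA4 probes, 1 was well above background on 1 array, A549 TRIM58-WT 1.

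Of the 13 semaphorins of classes 4 to 7, which are mostly membrane proteins, 6 genes were tested in A549 and only SEMA4G was called. Its probe A_23_P127068 lay at 1.87, 1.52, 1.67 and 0.01 on the mock arrays and at -0.81, -1.85 and -1.54 on the TRIM58-WT arrays. Every mock array lay above every TRIM58-WT array, and mock 3 was again the nearest. SEMA4G fell by 2.52 on the log2 scale (SE 0.52, limma adjusted p = 0.0357). In HCC827 it was not well above background.

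PCSK5, 1 of 4 furin-type convertases, the enzymes that cut class 3 semaphorins, fell in A549 as well. Its probe A_23_P257003 lay at -1.29, -1.14, -0.99 and -0.72 on the mock arrays and at -2.30, -3.69 and -2.76 on the TRIM58-WT arrays, of which the first alone was well above background. The fitted difference was -1.95 (SE 0.37, limma adjusted p = 0.0279), which uses signals at background on the other TRIM58-WT arrays. It was -0.46 with normexp background correction, whose offset shrinks differences of dim probes, and the probe was tested only through the mock arrays. The other PCSK5 probes were not detected.

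In the list of 20 genes of the cytoplasmic response, 1 gene rose and 1 fell in A549. DPYSL4, a collapsin response mediator protein, rose on the probe A_23_P331049 from 0.22, 0.28, 0.54 and 1.61 on the mock arrays to 2.56, 2.85 and 3.07 on the TRIM58-WT arrays, by 2.03 (SE 0.37, limma adjusted p = 0.0255). A further DPYSL4 probe, A_33_P3410296, gave 0.24 (SE 0.15), so the probes disagreed. RND1, a protein that binds plexins, lay at -1.78, -1.91, -1.21 and -1.10 on the mock arrays and was not well above background on the TRIM58-WT arrays. It was at least 2.37-fold lower there (limma adjusted p = 0.0264), and it too was tested only through the mock arrays. The A549 calls of SEMA4G, PCSK5, DPYSL4 and RND1 were each lost without mock 1, mock 2, TRIM58-WT 2 or TRIM58-WT 3 (limma adjusted p up to 0.145), and remained without mock 3. With TRIM58-WT 2 and 3 averaged, RND1 alone of the 5 A549 calls passed. With normexp background correction, whose offset shrinks differences of dim probes, DPYSL4 alone of them passed, RND1 moved to -0.20 and SEMA4G to -1.34. With no filter on dim probes none passed (limma adjusted p from 0.0692 to 0.126).

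FYN, a kinase downstream of A plexins, rose in HCC827. Its probe A_23_P502142 lay at 0.13 and 0.26 in mock and at 1.83 and 1.60 in TRIM58-WT, a difference of 1.52 (SE 0.15, limma adjusted p = 0.0465). That call was lost without mock 1, mock 2 or TRIM58-WT 1 (adjusted p up to 0.235 from limma). In A549 FYN lay at -1.16, -1.13, -0.98 and -1.15 on the mock arrays and at -1.84, -1.70 and -1.42 on the TRIM58-WT arrays, a difference of -0.56 that did not pass the test (limma adjusted p = 0.106). The change of FYN differed between the lines by 2.08 (SE 0.25, limma adjusted p = 0.00463), and this held with every single replicate left out in turn. NRCAM, an adhesion protein that joins NRP2 in SEMA3F receptors, differed by -1.92 between the lines (limma adjusted p = 0.01). Its probe A_24_P252364 was detected on no HCC827 array, so that change has no measured level on the HCC827 side. The call was lost without HCC827 mock 1 and with the median shift (-1.52, limma adjusted p = 0.13). It was also lost with normexp background correction (-0.19, limma adjusted p = 0.625), whose offset shrinks differences of dim probes.

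**Figure D4:**
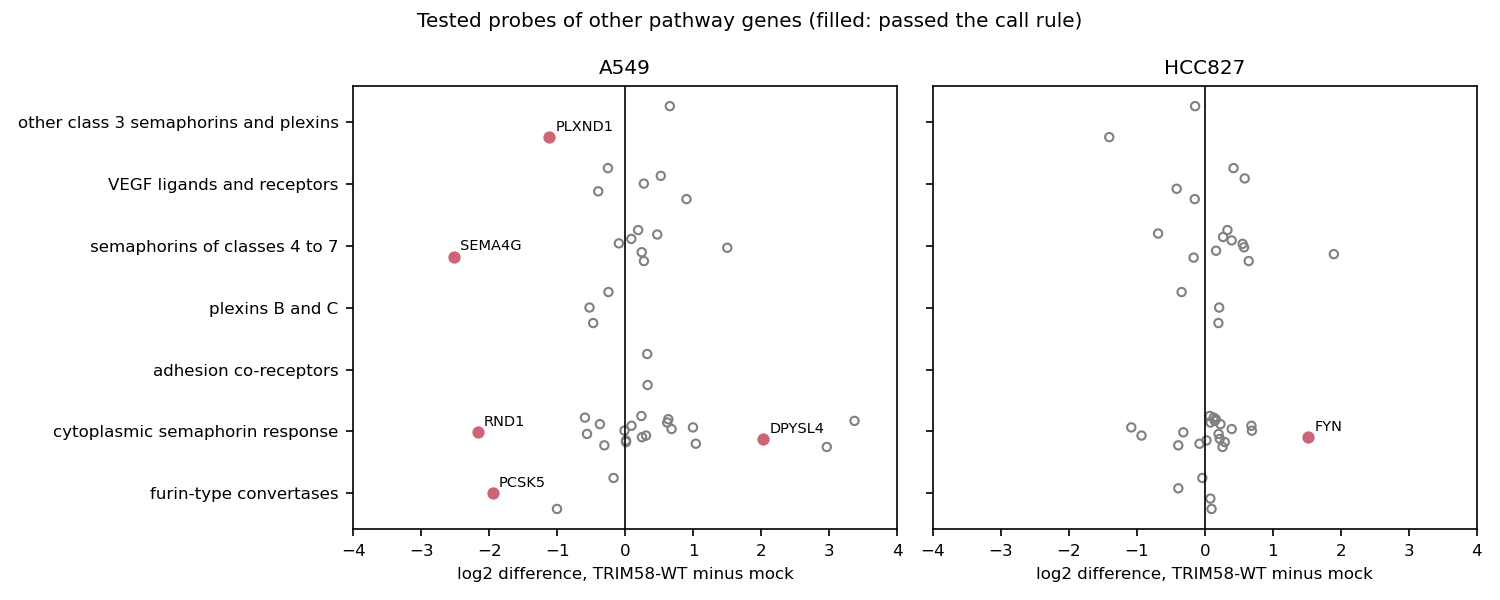
Log2 difference of TRIM58-WT minus mock (horizontal axis) of each tested probe of the 7 lists of other pathway genes (rows) in A549 (left) and HCC827 (right); filled, named points passed the call rule. PLXND1, SEMA4G, RND1, PCSK5 and DPYSL4 are filled in A549 and FYN in HCC827.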

How the data were processed

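RNA of 11 samples was hybridised in 1 colour. The authors extracted the deposited spot intensities with Agilent Feature Extraction (version 11.5.1.1 per the file headers and 10.7 per the submitters' processing notes), which subtracted background and removed trends within an array. The authors also deposited a log2 table of the same arrays. With a median baseline per probe, 95.47% of its values lay within 0.01 (log2) of those computed here (largest difference 4.93). Its column medians were -0.125 to 0.46, and its centring is not given in the sources used here. It served as an alternative.

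Control and outlier spots were left out, spots of a probe were averaged, and log2 signals were taken relative to the 75th percentile of their array. A probe was well above background when over 0.5 of its spots were. After outlier spots were left out, 28 values were missing. Accessions on 28302 probes gave symbols through RefSeq (GRCh38.p14); the array was annotated on hg19. Groups were compared with limma 3.58.1 (R 4.3.3), lmFit and eBayes, with Benjamini-Hochberg adjustment over all tested probes. Each line was fitted alone, and differences between lines in a fit of 4 groups. The steps were tested on simulated data. No spot was saturated, and the number of arrays limits the precision.

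Members, pathway lists and markers were chosen with earlier results of these data known. Named genes were all members, TRIM58, the list of other class 3 semaphorins and plexins, up to 2 called probes per direction in each other list and line, and the 3 nearest genes of the 3 members with the widest range of group means. Samples were not paired by replicate number. Deviations from the group mean correlated at 0.503, -0.423 and 0.503 for same-numbered A549 cells. They also correlated at 0.57 for mock 3 with TRIM58-WT 2 and at 0.405 for mock 2 with TRIM58-WT 1. In HCC827, with 2 cells per group, centring leaves only the values 0.077 and -0.077, which cannot decide on pairing. Within-slide values are means of arrays. Alternatives are given at the end. Among them, normexp background correction used an offset of 50, which shrinks log2 differences of dim probes. Plots used matplotlib 3.10.9 under Python 3.11.15.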

Additional observations from a re-analysis of the deposited data

Results flagged for a closer look

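On the 4 A549 mock arrays, 14 probes (the members and TRIM58) were checked for an array far from the others, with a gap to its nearest neighbour that was large against the whole range, and 5 stood out. Chance alone flags about 1 in 20 groups of independent samples, and here 2 of the 4 arrays are of control cell 1, so nothing is read from the count. Mock 3 stood out on SEMA3B (3.05, low), on TRIM58 (-0.71, high), on SEMA3A (-4.56, low) and on SEMA3E (-4.72, high), the last 2 among signals not well above background. The SEMA3D probe, at background too, also lay higher on mock 3, at -4.73. Mock 2 stood out on the NRP2 probe A_24_P50801 (-1.84, low), also not well above background.

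The change of TRIM58-WT against mock differed between HCC827 and A549 for SEMA3A by -4.02 (chosen with this value known), for FYN by 2.08 (limma adjusted p = 0.00463) and for NRCAM by -1.92 (limma adjusted p = 0.01). FYN and NRCAM came from lists drawn up with earlier results of these data known. SEMA3A was not well above background on the A549 arrays, and NRCAM was not on the HCC827 arrays. The NRCAM difference was -0.19 with normexp background correction (limma adjusted p = 0.625), whose offset shrinks differences of dim probes.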

How the results depend on the processing

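The number of called probes in A549 was 1171, and it was 507 with normexp background correction, 609 with no filter, 673 with the filter requiring detection on all arrays, 1801 with slide as a block and the mock arrays separate, 24 with the methods' t-test and 333 with TRIM58-WT 2 and 3 averaged (chosen after seeing the data). Leaving out each replicate gave 301 to 1956, the last without mock 3. In HCC827 it was 173, and 633 with the median shift, 106 with normexp, 0 with no filter, 373 with the filter requiring detection on all arrays, 0 with the methods' t-test and 0 to 831 with a replicate left out. With the replicate block, 1119 were called in A549 and 0 in HCC827. Called members numbered 0 in A549, and 1 with the median shift (SEMA3B), with slide as a block (SEMA3B) and with mock arrays as separate replicates (NRP1), and 0 to 2 with a replicate left out. In HCC827 they numbered 1, and 2 with the median shift (SEMA3A and SEMA3B), 0 with normexp, no filter, both lines in one fit, the replicate block or the methods' t-test, and 0 to 1 with a replicate left out. For the difference between lines they numbered 1, and 0 with the filter requiring detection on all arrays, and 0 to 3 with a replicate left out. For both mock groups they numbered 6, and 3 with normexp, 3 with the filter requiring detection on all arrays, and 3 to 6 with a replicate left out. Called pathway probes in HCC827 went from 1 to 2 with the median shift. Of calls in A549, 50.5% were higher, and 25.6% with the median shift, and in HCC827 32.9% were, and 45.7% with the median shift. The difference of PLXND1 between lines turned to 0.11 with the median shift and 0.21 with normexp, and ranged from -1.40 (without HCC827 TRIM58-WT 2) to 0.83 (without HCC827 TRIM58-WT 1) with a replicate left out. The difference of PLXNA3 in HCC827 ranged from -0.32 (without mock 2) to 0.039 (without mock 1). None of these passed the threshold. The causes were not tested, apart from settings that test other probes or fewer samples. Dim signals limit SEMA3A, SEMA3F, SEMA3D, SEMA3E and PLXNA2.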
